A study of Mus musculus with 111 samples.

Results

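The change of the lung's response to bleomycin from day 7 to day 14 was measured for each of 15707 genes as a difference of differences. The response at a day is the mean log2 level of the bleomycin mice minus that of the saline mice, and the change is the response at day 14 minus the response at day 7. A positive change means that the gene stood higher relative to saline at day 14 than at day 7, and a negative change that it stood lower. All genes with a probeset of their own were kept, so the members are 15707 of 15707 genes, measured in 31 lungs (the series has 80 more, of other days): 8 bleomycin and 8 saline mice at day 7, and 8 bleomycin and 7 saline mice at day 14. The mice were young adult male C57BL6/J animals with no transgene or deletion, and each received 1 intratracheal dose of bleomycin (2 U/kg in 50 µl of saline) or the saline alone. The lung homogenate of each mouse gave 1 Affymetrix mouse genome array, and different mice were killed on each day. The series follows the same 2 treatments on 7 days from day 1 to day 35, and all its arrays enter the estimate of the spread between mice.

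Bleomycin breaks DNA strands and injures the alveolar epithelium. In mice the injury is followed by an influx of leukocytes and the growth of epithelial cells, and then by the multiplication of fibroblasts and their differentiation into matrix-producing myofibroblasts that lay down collagen, elastic microfibrils and proteoglycans. Days 7 and 14 bracket the passage from the inflammatory to the fibrotic phase in the usual account of the model, and the comparison asks which genes' responses differed between them. The study of these mice placed both days in its active fibrosis phase, which followed an inflammation phase. A level in lung homogenate is that of all its cells, so a lower number of cells of a type and less RNA per cell cannot be told apart.

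The 31 arrays had medians between 8.64 and 8.71 on the log2 scale, and each had a median correlation with its own group between 0.98535 and 0.9958, the lowest being saline replicate 3 of day 7. All lungs carried the genes of their tissue, with mean levels of 11.78 to 12.40 over 17 alveolar type II cell genes and 11.24 to 11.70 over 20 type I cell genes. The saline mouse with the lowest correlation also carried cartilage RNA. Acan, the large proteoglycan of cartilage, stood at 10.06 in it against 5.53 to 5.83 in the other saline mice of day 7, Ucma at 9.62 against 5.17 to 5.59, and Cnmd at 7.68 against 5.02 to 5.37. Over 13 cartilage genes, a list added after the values were seen, its mean level was 7.77, with the other saline mice of that day no higher than 6.21, bleomycin mice of day 7 between 6.17 and 6.42, saline mice of day 14 between 5.94 and 6.40 and bleomycin mice of day 14 between 6.20 and 6.47. Among saline mice of day 14, replicate 4 was the highest for Acan (6.99, next 6.35), Ucma (6.72, next 5.79) and Cnmd (5.71, next 5.43), far less so than the mouse of day 7. None of the 13 genes had a called change. The bleomycin mice also differed among themselves in how strongly they responded. Over the 448 genes raised more than 2-fold at day 7, the median excess over saline was 1.00 in bleomycin replicate 1 of day 7 and 1.30 to 1.70 in the other mice of that day, and it was 0.87 in replicate 8 and 0.97 in replicate 6 of day 14 and 1.16 to 1.51 in the others.

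The response differed between the days in few genes. Of the 15707 genes, 105 (0.668%) had a change with an adjusted p under 0.05 in limma, with 45 genes (0.286%) changed upward and 60 (0.382%) downward. Of these, 11 and 6 genes changed by more than 2-fold, and 1772 genes had an unadjusted p under 0.05. By contrast 7471 genes (47.6%) passed for the response at day 7 and 6527 (41.6%) for the response at day 14. The change had a median of -0.011 over all genes, with 46.5% above 0, and 5% of genes lay under -0.31 and 5% above 0.25. Its median standard error was 0.113, and for 96.7% of genes the 95% confidence interval of the change lay within 2-fold in either direction. Of the 448 genes raised more than 2-fold at day 7, 426 were still called higher at day 14 and 303 were still over 2-fold, and 14 had a called downward change. Of the 118 genes lowered more than 2-fold at day 14, 118 were below saline at day 7 too, 81 called lower and 47 over 2-fold, and 1 had a called downward change. Of the 379 genes raised more than 2-fold at day 14, 13 had a called upward change, and of the 75 lowered so at day 7, 3 had one. Each set was picked by 1 of the 2 responses in the change, so the direction of its calls is not a separate result.

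**Figure D1:**
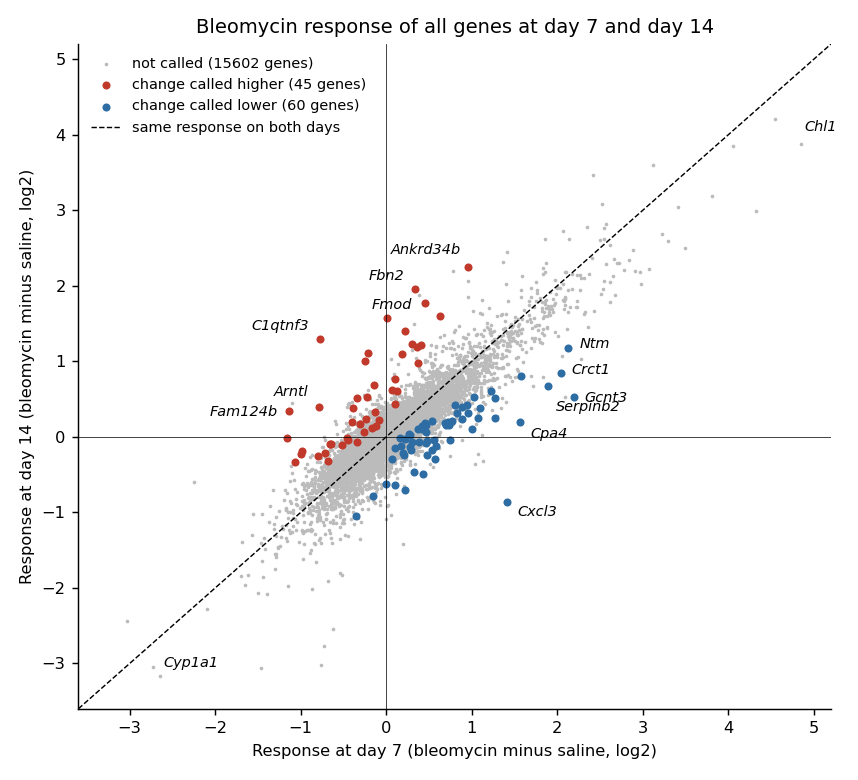
The response at day 14 (bleomycin minus saline, log2) is plotted against the response at day 7 for 15707 genes, with the 45 genes called upward in red, the 60 called downward in blue and the dashed line where both responses are equal. Most genes lie along the line, and the called genes lie off it at small to moderate responses, such as C1qtnf3 (-0.77 to 1.29) and Cxcl3 (1.41 to -0.86).

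C1qtnf3, a secreted protein of the C1q and TNF-related family, had the largest upward change, 2.07 ± 0.39 (SE, adjusted p = 0.000976), a 4.19-fold shift. Its level ran from 4.59 to 6.14 (median 5.00) in the saline mice and from 3.86 to 5.01 (median 4.26) in the bleomycin mice of day 7. At day 14 it ran from 4.52 to 5.62 (median 5.25) in saline and from 5.63 to 8.24 (median 6.14) in bleomycin mice. Every bleomycin mouse of day 14 was therefore above every mouse of the other groups but saline replicate 3 of day 7, and the gene went from below saline at day 7 (-0.77) to above it at day 14 (1.29), both called. Without that saline mouse the change was 1.91 (adjusted p = 0.00312).

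Fbn2, fibrillin 2 of the elastic microfibrils, changed by 1.63 ± 0.30 (adjusted p = 0.000976). At day 7 its level was 6.69 to 7.5 (median 7.02) in saline and 7.05 to 7.73 (median 7.34) in bleomycin mice, groups that overlapped. At day 14 it was 5.95 to 6.88 (median 6.40) against 6.97 to 9.28 (median 8.72), with every bleomycin mouse above every saline mouse. Fmod, fibromodulin, a small proteoglycan that binds collagen fibrils, changed by 1.32 ± 0.30 (adjusted p = 0.0128). Its level in bleomycin mice was 9.83 to 10.58 (median 10.31) at day 7 and 10.71 to 12.22 (median 11.67) at day 14 without overlap, while saline mice had medians of 9.84 and 9.66. The response of Fmod did not pass at day 7 (0.45, adjusted p = 0.0644) and was 1.77 at day 14.

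Ibsp, bone sialoprotein, and Col11a1, a minor fibrillar collagen of cartilage and embryonic tissue, changed by 1.56 ± 0.35 (adjusted p = 0.0143) and 1.27 ± 0.33 (adjusted p = 0.0411). A second probeset of Ibsp gave a change of 0.01 (adjusted p = 0.988 over all probesets), and that of Col11a1 one of 1.00 that passed. Ibsp ran from 3.32 to 5.83 (median 5.26) in bleomycin mice of day 14 and from 3.33 to 4.03 (median 3.57) in those of day 7. Of its saline mice, replicate 3 of day 7 stood at 5.05 and the other mice of that day at 3.12 to 3.64. For Col11a1 that mouse stood at 6.45 against 3.74 to 4.02, and bleomycin mice of day 14 spread from 3.99 to 6.25 (median 4.56). Without the mouse with cartilage RNA 93 of the 105 calls were kept. Ibsp then changed by 1.35 (adjusted p = 0.0335), and Col11a1 by 0.94 and no longer passed (adjusted p = 0.104).

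Cthrc1, a secreted protein of activated fibroblasts that contains a collagen triple helix, was already raised at day 7 (0.63) and stood at 1.60 at day 14, a change of 0.97 ± 0.24 (adjusted p = 0.0302). Its bleomycin mice lay between 8.28 and 8.90 (median 8.52) at day 7 and between 8.46 and 10.45 (median 9.51) at day 14, so that the days overlapped while both lay above all saline mice of their day. Lrrc15, a membrane protein of myofibroblasts, rose from a response of 0.36 to 1.19, a change of 0.83 ± 0.20 (adjusted p = 0.0201). Several other called genes are matrix proteins or enzymes and were picked out after their values were seen. They are Fndc1 (change 0.85), with a response from -0.34 to 0.51, Thbs3 (0.73), a thrombospondin that went from -1.07 to -0.33, Adamts16 (0.55), a matrix protease, Reln (0.49) and Mamdc2 (0.37). Fndc1 had every bleomycin mouse of day 14 above every one of day 7, with 10.14 to 10.82 against 9.34 to 9.89, and kept its call without each of the 31 mice in turn, but the second probeset of Fndc1 gave 0.17 (adjusted p = 0.511 over all probesets).

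The matrix lists gave few called genes. Of 24 matricellular and provisional matrix genes, 2 changed upward (Fbn2 and Cthrc1) and 0 downward, against 0.286% and 0.382% of all genes. The median change was 0.24, with 21 of 24 positive. Thbs4 (1.06) and Thbs2 (0.95), both thrombospondins, did not pass (adjusted p = 0.24 and 0.18), nor did Tnc (0.25) and Fn1 (0.37), whose responses at day 14 were 2.82 and 1.95. Among 11 fibrillar collagens 1 changed upward, Col11a1, with a median of 0.19 and 10 of 11 above 0. The main collagens of scar had similar responses on both days. Col1a1 stood at 0.79 and 0.95, with a 95% interval of the change from -0.19 to 0.51, Col3a1 at 0.96 and 1.13, with an interval from -0.35 to 0.68, and Col5a2 at 1.34 and 1.61. Of 10 small leucine-rich proteoglycans Fmod alone passed, and of 18 contractile and myofibroblast genes Lrrc15 alone. Acta2, smooth muscle actin, had responses of -0.37 and -0.20.

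The other large upward changes fell on genes of varied function. Ankrd34b, an ankyrin repeat protein, went from a response of 0.96 to 2.25, and its bleomycin mice did not overlap between the days, with 5.16 to 6.15 at day 7 and 6.20 to 7.40 at day 14. Stac2, an adaptor of calcium channels, went from 0.22 to 1.40. Crabp1, a cellular retinoic acid-binding protein, went from -0.21 to 1.11, and neither the bleomycin (0.59, adjusted p = 0.165) nor the saline mice (-0.73, adjusted p = 0.130) differed between the days by a called amount. Its call was lost in 19 of the 31 fits that left out a mouse.

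Genes of vascular and lymphatic endothelium gave further upward changes. Of 27 endothelial genes, 3 changed upward and 0 downward, against 0.286% and 0.382% of all genes, with a median of 0.08. Prox1, the transcription factor that specifies lymphatic endothelium, changed by 0.91 ± 0.20 (adjusted p = 0.0127). Its level ran from 8.49 to 9.30 (median 8.90) in bleomycin mice of day 7 and from 9.18 to 10.07 (median 9.81) in those of day 14, which lay above all saline mice of that day (8.26 to 9.0). It passed for the response at day 14 (1.09) and not at day 7 (0.18).

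Emcn, endomucin of capillaries and veins, and Aplnr, the apelin receptor of growing vessels, had called responses of -0.40 and -1.0 at day 7. At day 14 they stood at 0.19 and -0.23, where neither response passed. In bleomycin mice Emcn ran from 11.18 to 11.57 at day 7 and from 11.60 to 12.13 at day 14 without overlap, a change of 0.59 ± 0.12 (adjusted p = 0.00186). Aplnr changed by 0.77 ± 0.19 (adjusted p = 0.0289), with overlap between the days. Apln, the ligand of that receptor, went from -1.11 to -0.48 and did not pass (0.63, adjusted p = 0.121). Among general endothelial genes Pecam1 (0.08), Cdh5 (0.19) and Kdr (0.11) did not pass, and neither did Lyve1, another lymphatic marker, with responses of -0.17 and -0.66 (change -0.49, adjusted p = 0.234). Other called genes that endothelium is known to express, chosen after their values were seen, were Stab2 (0.67), a hyaluronan receptor of sinusoidal and lymphatic vessels, and Thsd1 (0.55).

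**Figure D2:**
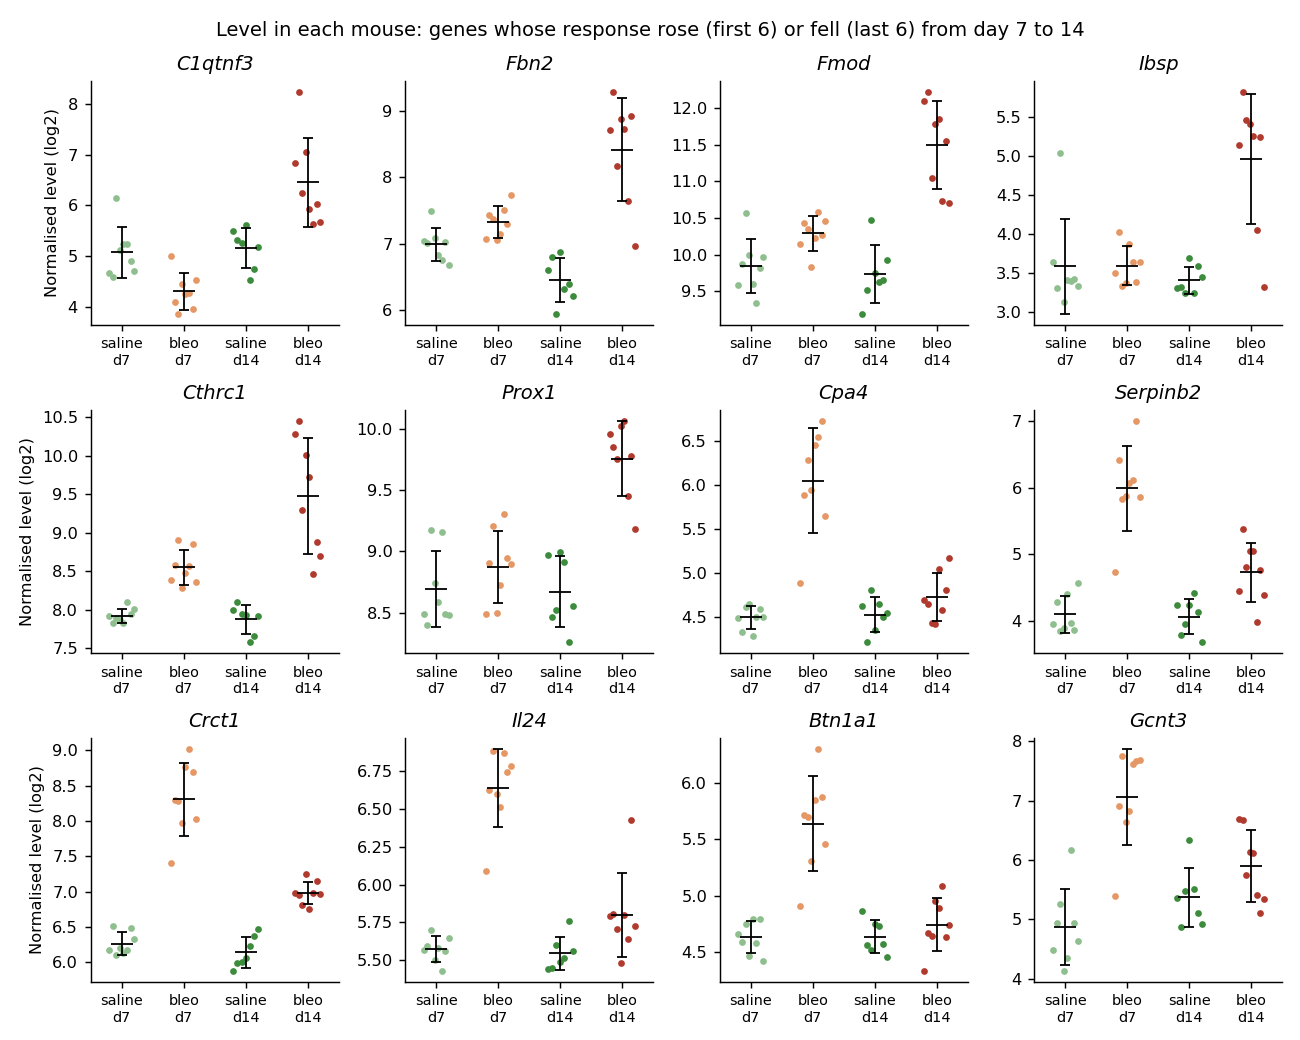
The normalised log2 level in each mouse (points) with the mean and SD of its group (bars) is plotted for 12 genes, in saline and bleomycin mice of day 7 and day 14. The group mean is highest in bleomycin mice of day 14 for the first 6 genes and in those of day 7 for the last 6, with saline replicate 3 of day 7 apart for C1qtnf3 (6.14) and Ibsp (5.05).

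The downward changes were mostly responses of day 7 that had shrunk by day 14. Of the 60 genes, 29 were called higher than saline at day 7 and not called at day 14, 20 were called higher at both days, and 5 went from called higher to called lower. Of the 45 upward changes, 16 were called lower at day 7 and not called at day 14, and 16 were called higher at day 14 only. A further 5 went from called lower to called higher, 5 were called higher at both days and 3 lower at both. Cpa4, a carboxypeptidase, had a response of 1.56 at day 7 and 0.20 at day 14, a change of -1.36 ± 0.21 (adjusted p = 2.28e-05). Its level in bleomycin mice ran from 4.89 to 6.74 (median 6.11) at day 7 and from 4.41 to 5.17 (median 4.67) at day 14, while saline mice had medians of 4.50 and 4.55. All bleomycin mice of day 7 were above all saline mice, and those of day 14 overlapped with saline.

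Crct1, a cysteine-rich protein of the cornified layer, fell from a response of 2.04 to 0.84, a change of -1.21 ± 0.28 (adjusted p = 0.0196). It ran from 7.41 to 9.02 in bleomycin mice of day 7 and from 6.76 to 7.25 in those of day 14, and these did not overlap with each other or with the saline mice of their day. It is the 1 of the 60 genes changed downward whose bleomycin mice of day 14 all lay below those of day 7, as in 0.185% of all genes. Of the 45 changed upward, 10 had all of these mice above those of day 7, as in 0.325% of all genes. Serpinb2, plasminogen activator inhibitor 2, fell from 1.89 to 0.67, with 4.74 to 7.01 (median 5.98) in bleomycin mice of day 7 and 3.98 to 5.38 (median 4.79) in those of day 14 (change -1.22 ± 0.28, adjusted p = 0.0143). Gcnt3, an enzyme that branches mucin sugars, fell from 2.19 to 0.53 (change -1.66 ± 0.41, adjusted p = 0.0276). This rests on 1 of its 2 probesets, and Gcnt3 changed by 0.10 on the other (adjusted p = 0.799 over all probesets). Its mice were spread widely, from 5.39 to 7.75 in bleomycin mice of day 7 and from 5.11 to 6.69 in those of day 14.

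Among cytokines, Il24, of the interleukin 10 family, and Il23a, the p19 subunit of interleukin 23, fell. Il24 had a response of 1.07 at day 7 and 0.25 at day 14 (change -0.81 ± 0.15, adjusted p = 0.000976), with 6.09 to 6.88 (median 6.69) in bleomycin mice of day 7, 5.48 to 6.43 (median 5.76) in those of day 14 and 5.43 to 5.76 in all saline mice. Il23a stayed above all saline mice on both days, with responses of 1.58 and 0.81 (change -0.77 ± 0.19, adjusted p = 0.0253). It was the 1 called gene on the list of 25 interleukins and other cytokines, which does not hold Il24. Of all genes 0.382% changed downward. Il6 had responses of 1.77 and 1.91 and Lif of 2.23 and 1.71, and neither change passed.

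Btn1a1, a butyrophilin best known from milk fat globules, had the smallest p of all genes (adjusted p = 9.59e-06) with a change of -0.90 ± 0.13. Only 1 of its 2 probesets passed, and the other gave -0.09 for Btn1a1 (adjusted p = 0.838 over all probesets). Its level ran from 4.91 to 6.30 (median 5.70) in bleomycin mice of day 7, above all saline mice, and from 4.34 to 5.09 (median 4.70) at day 14 with overlap with the saline range of 4.46 to 4.86. Afp, alpha-fetoprotein, went from 1.27 to 0.25 (change -1.02 ± 0.25), Ntm, a neuronal adhesion protein, from 2.13 to 1.18 (change -0.95 ± 0.24), and Zc3h6, a zinc finger protein, from 0.22 to -0.70 (change -0.92 ± 0.21). Ntm stood above all saline mice on both days, with 9.47 to 10.59 and 9.71 to 10.13 in bleomycin mice, and it was the saline mice whose difference between the days passed (0.62, adjusted p = 0.0493).

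Of 18 clotting genes 3 changed downward (Serpinb2, F13a1 and F3) and 0 upward, against 0.382% and 0.286% of all genes. The list's median was -0.03 with 8 above 0. F13a1, the transglutaminase chain of factor XIII that macrophages also make, went from 0.43 to -0.49, both called, with 10.97 to 11.70 (median 11.24) in bleomycin mice of day 7 and 10.51 to 11.05 (median 10.83) in those of day 14. Its saline mice had medians of 10.88 and 11.36 (difference 0.46, adjusted p = 0.102), and the change was -0.92 ± 0.20 (adjusted p = 0.0121). Cd163, the haemoglobin scavenger receptor of tissue macrophages, went from 0.57 to -0.29, the latter not called (change -0.86 ± 0.21, adjusted p = 0.0280). It was the 1 called gene of 14 on the list of monocyte-derived and alternatively activated macrophages, against 0.382% of all genes changed downward. F3, tissue factor, went from 0.69 to 0.18 (change -0.51 ± 0.13).

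Krt19, a keratin of simple epithelium, went from 0.42 to 0.11 (change -0.31 ± 0.08, adjusted p = 0.0364). With F3 it made up the 2 called of 20 genes of transitional and stressed epithelium, against 0.382% of all genes changed downward. The list's median change was -0.24 with 4 of 20 above 0. The call of Krt19 held in 15 and that of F3 in 14 of the 31 fits that left out a mouse. Sprr1a, a cornified envelope protein, had the largest response of that list, 4.32 at day 7 and 2.99 at day 14, and its change of -1.33 did not pass (adjusted p = 0.263). Fmo2, a flavin monooxygenase of club cells, was level with saline at day 7 (0.00) and lower at day 14 (-0.63). On its other probesets Fmo2 changed by -0.31 to -0.37, and none of them passed (adjusted p = 0.109 to 0.22 over all probesets). For F3 and Krt19 the mouse with cartilage RNA was the highest saline mouse of day 7 (11.51 and 13.43), and bleomycin replicate 1 was the lowest bleomycin mouse of that day for F3 (10.91). Without the mouse with cartilage RNA both changes were larger in size, -0.63 for F3 (adjusted p = 0.00183) and -0.36 for Krt19 (adjusted p = 0.0111).

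A change of response can lie in the bleomycin mice, in the saline mice or in both. Between day 7 and day 14 the bleomycin mice differed in 579 genes (3.69%) and the saline mice in 175 (1.11%), 124 upward and 51 downward (70.9% upward, and 60.2% with arrays centred on their medians). Of the 45 upward changes the bleomycin mice alone passed in 32, the saline mice alone in 7, both in 1 and neither in 5. For the 60 downward changes the numbers were 38, 9, 0 and 13. By size the saline difference was the larger part in 13 of the 45 and 18 of the 60.

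**Figure D3:**
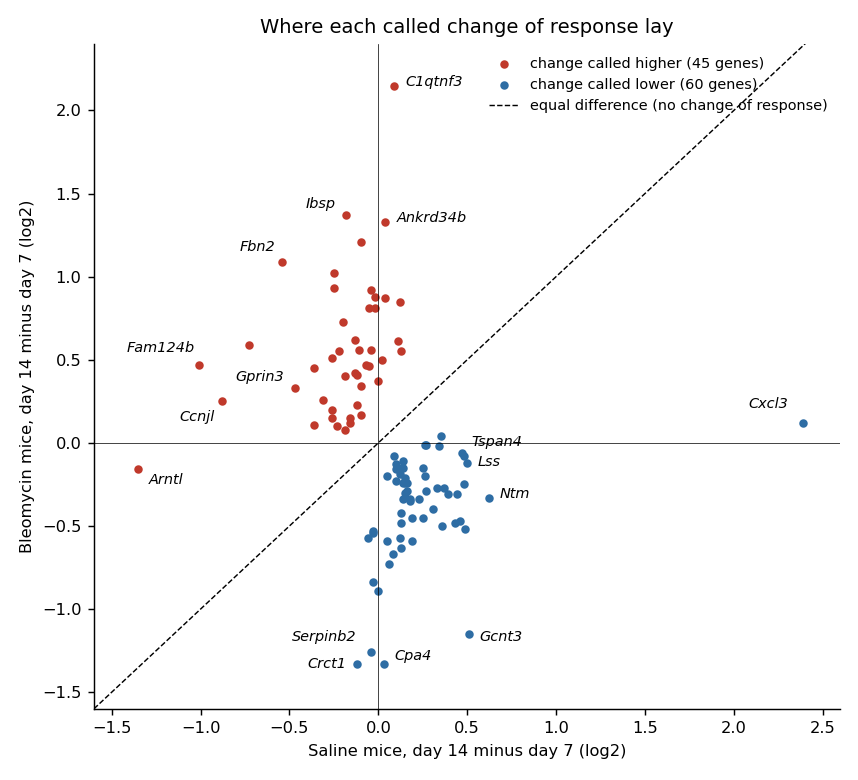
For the 105 called genes the difference between day 14 and day 7 in bleomycin mice is plotted against that in saline mice (both log2), with upward changes in red, downward changes in blue and the dashed line of equal differences. C1qtnf3, Ibsp, Cpa4 and Crct1 lie near the vertical axis, where the bleomycin mice differed, and Arntl (-1.35) and Cxcl3 (2.39) lie far along the saline axis.

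Arntl, the clock activator also called Bmal1, was an upward change of the saline kind, 1.19 ± 0.24 (adjusted p = 0.00336). Saline mice ran from 9.02 to 10.30 (median 9.71) at day 7 and from 7.96 to 8.68 (median 8.19) at day 14 without overlap, a difference of -1.35 (adjusted p = 1.04e-07). Bleomycin mice ran from 8.53 to 9.33 (median 8.83) and from 8.04 to 9.01 (median 8.70) and did not differ by a called amount (-0.16, adjusted p = 0.678). The saline mice alone also passed for Fam124b, a gene of little known function with a saline difference of -1.01 and a bleomycin difference of 0.47 (change 1.48 ± 0.30, adjusted p = 0.00322), and for Ccnjl, a cyclin-like gene with a saline difference of -0.88 (change 1.14 ± 0.30). For both the saline mice overlapped between the days, with Fam124b at 8.24 to 9.23 and 7.26 to 8.69 and Ccnjl at 6.67 to 8.04 and 6.34 to 7.10. Over the 7 days the mean level of Arntl in saline mice was 9.54 at day 2 and 9.64 at day 7 and between 7.64 and 8.29 on each of the other days. Fam124b followed the same course, with 8.58 and 8.8 at days 2 and 7 and 6.54 to 7.80 otherwise.

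Among 17 clock genes Arntl alone had a called change, against 0.286% of all genes changed upward, and the list's median change was -0.19. Between the saline mice of the 2 days, however, 5 of the 17 were higher and 2 lower at day 14, against 1.11% of all genes, and in the bleomycin mice 0 passed in either direction. Npas2, a partner of Arntl like Clock, fell with it in saline mice (-1.14, adjusted p = 0.00039), and the output and repressor genes Dbp (0.76), Per2 (0.68), Hlf (0.53), Bhlhe41 (0.42) and Bhlhe40 (0.36) rose. The bleomycin differences of these genes lay between -0.29 and 0.30. These genes other than Arntl were named after their values were seen. Clock genes cycle over the day and night, Arntl in antiphase to Dbp and the Per genes. The labels give no hour of collection, so day and hour cannot be told apart.

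**Figure D4:**
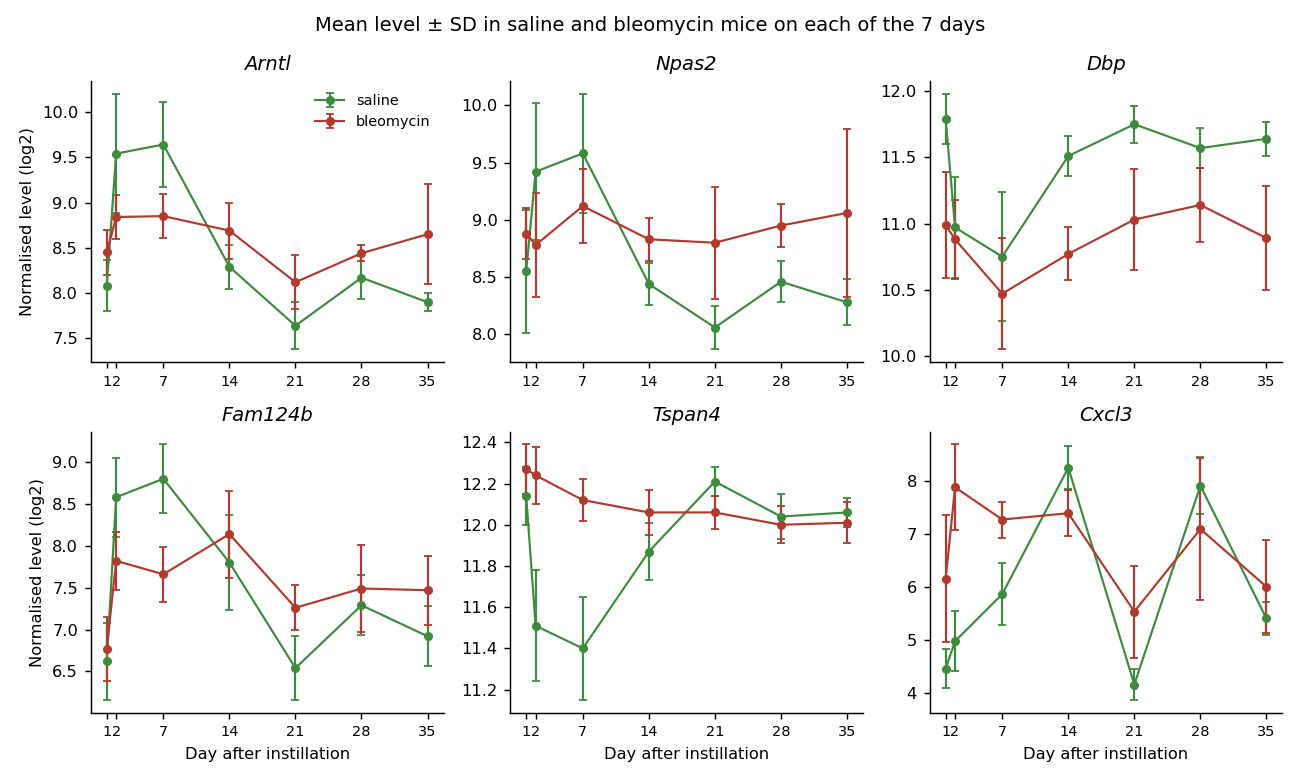
Mean levels (log2, bars are SD) of 6 genes are plotted for saline (green) and bleomycin mice (red) on the 7 days from day 1 to day 35, with 7 or 8 mice in each group. Saline mice of days 2 and 7 stand high for Arntl, Npas2 and Fam124b and low for Dbp and Tspan4, and saline mice of days 14 and 28 stand high for Cxcl3.

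Upstream sequences of 2 of the clock genes are shown because CLOCK and ARNTL bind the letters CACGTG, the E-box, and its presence differs between them. They are the 250 bases before the annotated start in RefSeq (GRCm38.p6), written 5′ to 3′ along the gene's strand, with the motif in capitals. Arntl lies at chr7:113207215-113207464 on the plus strand, and Bhlhe41 at chr6:145865421-145865670 on the minus strand.
Arntl: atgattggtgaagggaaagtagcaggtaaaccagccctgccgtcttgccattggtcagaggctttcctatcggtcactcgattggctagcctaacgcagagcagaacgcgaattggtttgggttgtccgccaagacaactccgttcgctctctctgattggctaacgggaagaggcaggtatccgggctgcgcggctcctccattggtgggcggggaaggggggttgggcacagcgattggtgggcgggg
Bhlhe41: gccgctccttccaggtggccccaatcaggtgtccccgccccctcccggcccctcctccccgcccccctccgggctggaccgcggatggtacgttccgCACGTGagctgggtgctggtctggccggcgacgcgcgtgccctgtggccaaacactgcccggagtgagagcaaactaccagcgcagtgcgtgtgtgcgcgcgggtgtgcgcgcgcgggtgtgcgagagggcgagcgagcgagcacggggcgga
The first holds no match in this window and the second 1. In windows of 250 bases before to 50 after a start, searched on both strands, the motif was in 5 of 20 promoters of the clock list (25%) and in 8.95% of 15793 promoters of the genes tested. It was in 8.89% of the promoters of genes changed upward and 10.5% of those changed downward. A match is only a match of letters.

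Cxcl3, a chemokine that attracts neutrophils, had the largest downward change, -2.27 ± 0.51 (adjusted p = 0.0128). Saline mice ran from 5.16 to 6.95 (median 5.88) at day 7 and from 7.5 to 8.70 (median 8.30) at day 14 without overlap, a difference of 2.39. Bleomycin mice were at 6.96 to 7.97 (median 7.20) and 6.69 to 7.96 (median 7.29). The response of Cxcl3 therefore went from 1.41, called, to -0.86, not called (adjusted p = 0.0512 in limma), with bleomycin mice at about the same level on both days. In saline mice the mean was 4.46 at day 1, 4.98 at day 2, 5.87 at day 7, 8.26 at day 14, 4.16 at day 21, 7.92 at day 28 and 5.41 at day 35. Cxcl2, a close relative, had saline medians of 6.74 and 8.88 and a change of -1.40 that did not pass (adjusted p = 0.372). Of 25 chemokines 1 changed downward and 0 upward, against 0.382% and 0.286% of all genes. The list's median was -0.21 and 6 were positive, against 46.5% of all genes. Ccl17 went from 2.06 to 1.07 (adjusted p = 0.140) and Ccl8 from 2.67 to 1.88 (adjusted p = 0.463).

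Other changes lay in the saline mice too. Lss, lanosterol synthase of the cholesterol pathway, was 0.50 higher in saline mice at day 14 (9.92 to 10.19) than at day 7 (9.37 to 9.69), without overlap, and the response went from -0.16 to -0.78 (change -0.63 ± 0.14, adjusted p = 0.0121). It was the 1 called change of 17 cholesterol genes, against 0.382% of all genes changed downward. Of the 17 cholesterol genes, 3 were higher in saline mice of day 14, where 1.11% of all genes differed in either direction. Npc1, a cholesterol transporter of lysosomes, changed upward by 0.29 ± 0.07, with neither part called. Tspan4, a tetraspanin, had a saline difference of 0.47 (change -0.53 ± 0.10, adjusted p = 0.00131).

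Most of the programmes that bleomycin moved had no called change. Of 32 mitosis genes 0 passed in limma in either direction and 0 had an unadjusted p under 0.05, with median responses of 1.80 at day 7 and 1.67 at day 14 and single changes between -0.28 and 0.20, and 31 had an interval within 2-fold. Of 32 DNA replication genes 0 passed and 2 had an unadjusted p under 0.05, with medians of 0.86 and 0.73. Of 19 p53 targets 0 passed, with 2 at that unadjusted p (medians 0.68 and 0.67), and of 31 interferon-stimulated genes 0 at either level (0.32 and 0.23). Of 19 T cell genes 0 passed at either level, although 18 had a change above 0 (median 0.20), among them Pdcd1, the checkpoint receptor PD-1, at 0.70 (adjusted p = 0.458). Alveolar type I and type II cell genes had medians of 0.01 and 0.06 with 0 called of 20 and 17 and 1 and 2 at an unadjusted p under 0.05. Goblet cell and mucin genes had a median of -0.41, and the spread between mice was wide, with 7 of 19 intervals within 2-fold and 0 called or at an unadjusted p under 0.05. Over all 56 lists 964 genes were measured and 20 of the 105 called genes were on any list. The median change of all genes was -0.011, with 46.5% above 0, and 1772 of the 15707 genes had an unadjusted p under 0.05.

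**Figure D5:**
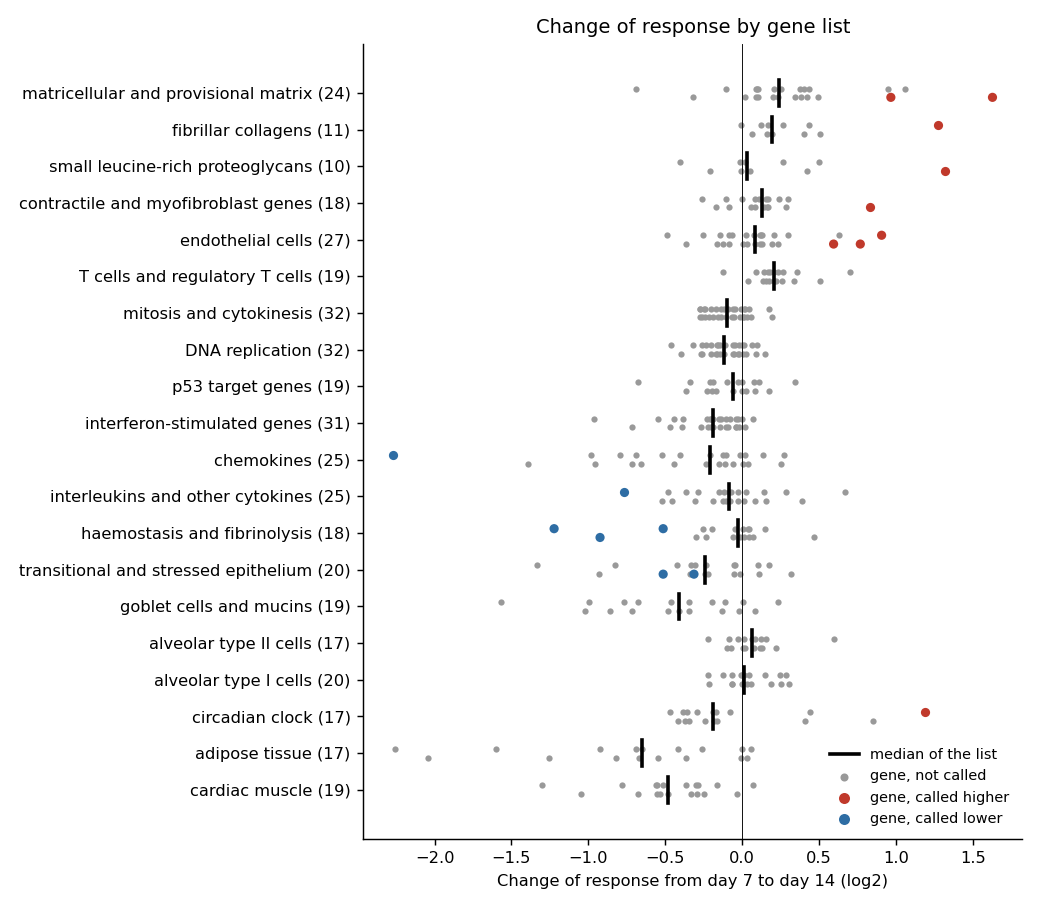
The change of response (log2) of each measured gene is plotted for 20 gene lists, with the number of genes in brackets, the list's median as a black bar, and called genes in red (upward) or blue (downward). No list holds more than 3 called genes, and the medians lie between -0.65 and 0.24.

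Adipose and cardiac muscle genes, which mark tissues that can be taken with the lung, had the lowest medians, -0.65 over 17 and -0.49 over 19 genes, with 0 called in either list and 2 and 0 at an unadjusted p under 0.05. The mean level of the adipose list ran from 7.38 to 10.75 in saline mice of day 7, 7.21 to 8.52 in bleomycin mice of day 7, 8.19 to 9.73 in saline mice of day 14 and 7.28 to 8.55 in bleomycin mice of day 14. Adipoq, the adipocyte hormone, had a change of -2.26 with a standard error of 1.12 (adjusted p = 0.432). The part of this tissue in other changes was not tested.

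The genes with the largest responses of either day had no called change. Chl1, a neural adhesion molecule, had responses of 4.85 and 3.88, Dmp1, a bone matrix protein, of 4.55 and 4.21, Chodl of 4.06 and 3.85, and Mmp12, macrophage elastase, of 3.11 and 3.60. None of these changes passed, and their standard errors were 0.45 to 0.76. On the other side Cyp1a1, a detoxifying cytochrome, had responses of -2.73 and -3.05, Fabp1 of -2.64 and -3.17, and Igfbp3 of -3.03 and -2.43. Alas2, the haem synthesis enzyme of red cell precursors, went from -2.25 to -0.60, and the adipocyte and gluconeogenesis gene Pck1 from -1.47 to -3.06. None of these passed either, and for Alas2 and Pck1 the standard errors were 0.72 and 1.14.

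More genes passed in the neighbouring intervals. The response changed in 2945 genes (18.7%) from day 2 to day 7 and in 1041 (6.63%) from day 14 to day 21, and these comparisons share the mice of day 7 or day 14 with the one described. Fmod, for example, had changes of 0.91, 1.32 and -1.17 over the 3 intervals, and Cthrc1 of 1.11, 0.97 and -1.14. Those of Cpa4 were 0.96, -1.36 and -0.10, and those of Il24 0.86, -0.81 and -0.02. In bleomycin mice the mean level of Fmod was 10.29 at day 7, 11.50 at day 14 and 10.69 at day 21, and that of C1qtnf3 was 4.30, 6.45 and 5.90.

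The weakest called genes were Nfe2l2, the antioxidant regulator NRF2 (-0.60 ± 0.16, adjusted p = 0.0449, and -0.07 on its other probeset), and Nanp (-0.31 ± 0.08, adjusted p = 0.0449), and just outside lay Crybg2 (-0.49 ± 0.13, adjusted p = 0.0501) and Trp53i11 (0.40 ± 0.11, adjusted p = 0.0501). Of the 105 genes 44 kept their call without each of the 31 mice in turn, 23 upward and 21 downward, and 0 changed sign. Among the genes named, Reln held its call in 10 of these fits, Ccnjl in 11, Nanp in 12, Fmo2 and Nfe2l2 in 13, and Col11a1 and Stab2 in 15. The other probesets of Ccnjl gave changes of 1.03 and 1.07 that passed (adjusted p = 0.000234 and 0.0269 over all probesets). Of the 43 called genes with more than 1 probeset, 38 had all of them in 1 direction and 10 had a second that passed. On a second probeset Zc3h6 had a change of -0.18, Thsd1 of 0.21, Aplnr of 0.30 and Ntm of -0.21, which did not pass. Most large changes were of dim genes: 13 of the 17 over 2-fold had a mean level among the lowest 30% of genes, at or under 6.94.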

How the data were processed

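RNA of lung homogenates was measured on Affymetrix mouse genome arrays, 1 for each animal. Per the labels, the authors normalized the probe intensities by RMA, and the deposited values are log2 levels (version and genome build are not given in the sources used here). The study's methods state that probes with non-unique or outdated mapping were dropped and that 1 saline mouse of day 14 was removed. Columns were matched to mice by the sample titles.

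The table has 32688 probesets. Those of more than 1 gene (314) and those of none or of array controls (4513) were left out, and of the other 27861 the most variable probeset was kept for each gene, which gave 15707 genes. The 14 group means were estimated together from all arrays of the series in R 4.3.3 with limma 3.58.1 (lmFit, eBayes with default settings). The change is the contrast of the 4 groups, tested on 2 sides, with standard errors and 95% intervals from limma and p-values adjusted by the Benjamini-Hochberg method over the 15707 genes of each contrast. A gene was called at an adjusted p under 0.05. The script was tested on simulated data. The number of arrays limits the precision, and nothing in the sources says whether mice shared a cage or a processing run, so day and any such batch cannot be told apart.

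Genes named are the 12 largest called changes in each direction, up to 4 called members of each list in each direction or else the member with the smallest p, and the 4 largest responses of each day and direction, with others said to be chosen after their values were seen or given as members of a list. The members, the lists and the comparison were chosen with earlier results of these data known, and the counts of lists are descriptions with no test. Deviations of same-numbered mice of different groups had a median correlation of -0.063 (14 of 45 pairs over 0.1), and numbers were not used as pairs. Between saline and bleomycin mice of the same day it ran from -0.145 to 0.185 at day 7 and from -0.199 to 0.354 at day 14. Mice of different numbers were not compared, so a shared run of same-numbered mice is not excluded. Alternatives concerned the choice of probeset, a filter on dim genes, the scaling, the arrays in the fit, array weights, the variance model, pooled saline mice, the replicate number and each of the 31 mice. Promoter sequences are RefSeq's (GRCm38.p6), found by symbol for 12513 of the genes.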

Additional observations from a re-analysis of the deposited data

Results flagged for a closer look

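The response to bleomycin differed between day 7 and day 14 by the test of the difference itself in 105 genes. The 12 largest upward changes (log2) were those of C1qtnf3 (2.07), Fbn2 (1.63), Ibsp (1.56), Fam124b (1.48), Fmod (1.32), Crabp1 (1.32), Ankrd34b (1.29), Col11a1 (1.27), Arntl (1.19), Stac2 (1.19), Ccnjl (1.14) and Cthrc1 (0.97). The 12 largest downward changes were those of Cxcl3 (-2.27), Gcnt3 (-1.66), Cpa4 (-1.36), Serpinb2 (-1.22), Crct1 (-1.21), Afp (-1.02), Ntm (-0.95), F13a1 (-0.92), Zc3h6 (-0.92), Btn1a1 (-0.90), Cd163 (-0.86) and Il24 (-0.81).

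In 13 of 136 groups of mice, for 34 named genes with a called change, 1 mouse lay far from the others of its group by Dixon's ratio, where chance gives about 1 in 20. Saline replicate 3 of day 7, the mouse with cartilage RNA, was the highest of its group for C1qtnf3 (6.14, next 5.23), Col11a1 (6.45, next 4.02), Ibsp (5.05, next 3.64), F3 (11.51, next 10.70) and Krt19 (13.43, next 13.14). Bleomycin replicate 1 of day 7, the mouse with the weakest response of its group, was the lowest for F3 (10.91, next 11.43), Gcnt3 (5.39, next 6.64) and Il24 (6.09, next 6.51) and the highest for Npc1 (11.13, next 10.97). The others were Aplnr in saline replicate 6 of day 7 (11.35, next 11.78), Arntl in bleomycin replicate 8 of day 14 (8.04, next 8.56), Col11a1 in saline replicate 4 of day 14 (4.38, next 3.95) and Il24 in bleomycin replicate 7 of day 14 (6.43, next 5.80).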

How the results depend on the processing

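Of the 105 genes with a called change, 105 were still called with array weights, with no moderation of the variance and with a trended and robust variance, 101 after repeated quantile normalization, 99 with arrays centred on their medians, 90 with the mean of a gene's probesets, 87 with its brightest probeset, 75 with only the 31 arrays of both days, 69 without the 30% dimmest genes and 68 with the saline mice of both days pooled. With saline pooled, Arntl (-0.16), Cxcl3 (0.12) and Nanp (0.04) changed sign, as the saline difference then leaves the contrast by construction, and with the brightest probeset Med17 (from 0.44 to -0.07) and Trim27 (from 0.51 to -0.02) did. The total count of 105 went to 161 over every probeset, 467 with array weights and 558 with saline pooled. The upward count went to 83, 187 and 337 under these settings. The downward count went to 280 with weights, 221 with saline pooled and 38 without dim genes, and the count over 2-fold to 26 over every probeset, 27 with weights and 4 without dim genes. Over every probeset the response passed in 13581 at day 7 and 11551 at day 14, the bleomycin difference in 975, the saline difference in 333, and the change in 5369 from day 2 to 7 and in 1916 from day 14 to 21. With weights the bleomycin difference passed in 1369, the saline difference in 671 and the change from day 14 to 21 in 1669. Leaving out dim genes removed 36 of the 105 genes, 13 of them over 2-fold, and the 69 left all kept their call. The counts over every probeset are of 27861 probesets, not of 15707 genes. With saline pooled the contrast is the bleomycin difference alone, which passed in 579 genes in the main fit. The cause of the other shifts was not tested.

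Leaving out 1 mouse at a time gave 60 to 154 calls in all (fewest without bleomycin replicate 6 of day 7, most without its replicate 1, and 62, 68 and 69 without bleomycin replicate 7 and saline replicate 5 of day 7 and saline replicate 1 of day 14), 30 to 69 upward, 28 to 85 downward (36 to 39 without saline replicate 5 or bleomycin replicate 5 of day 7, saline replicate 1 or bleomycin replicates 2 or 7 of day 14) and 13 to 23 over 2-fold. The response passed in 7044 to 7595 genes at day 7 and 6096 to 6665 at day 14. The bleomycin difference passed in 434 to 908 and the saline difference in 68 to 199 (68 without saline replicate 1 of day 14, and 81, 83 and 97 without replicates 4 and 5 of day 7 and 5 of day 14). The neighbouring changes passed in 2538 to 3244 and 701 to 1474. The replicate number as a block, fitted on the 31 arrays of both days, gave 109 calls (41 upward and 68 downward) and kept 60 of the 105 genes. Without the block, the fit of these 31 arrays kept 75. Depth does not apply to arrays, and the 36 called genes among the dimmest 30% are those whose values are nearest to background.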

Other observations

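In several lists nearly all members lay on 1 side of 0, with small changes and 0 called genes in limma. Of 25 ciliated cell genes 24 had a negative change (median -0.15, 1 at an unadjusted p under 0.05), of 11 B cell genes 11 had a positive one (median 0.13, 0 at that level), and of 20 immediate early genes 17 were positive (median 0.24, 0 at that level). Acute-phase proteins had a median of -0.23 with 2 of 17 above 0 and 3 at that level. Of 17 NRF2 and antioxidant genes, 14 lay below 0 (median -0.17, 6 at that level). Of all 15707 genes, 46.5% had a change above 0 and 1772 had an unadjusted p under 0.05. Genes of a list share their cells and their mice, so such counts are descriptions.

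Nfe2l2, which is not on that list, had a called change of -0.60 on 1 probeset and of -0.07 on its other (adjusted p = 0.701 over all probesets). On the first it ran from 8.07 to 8.33 in saline mice and from 8.63 to 8.87 in bleomycin mice of day 7 without overlap, and from 8.25 to 8.93 and from 8.09 to 8.83 at day 14. Its call was held in 13 of the 31 fits without 1 mouse.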
